A study of Homo sapiens with 10 samples.

Results

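NAMPT and 9 other genes of NAD synthesis and use were followed through the H3K27ac peak lists of a pair of HER2 breast cancer cell lines, SKBR3 and MDA-MB-453. H3K27ac is the acetylation of lysine 27 on histone H3, a mark of active promoters and enhancers. The members were NAMPT, NAPRT, NADSYN1, NMNAT1, NMNAT2, NMNAT3, NMRK1, QPRT, NNMT and SIRT1, 10 of 19962 protein-coding genes, and each was given a window of its gene body and 100 kb on either side. Peaks of all 8 lists that overlapped were merged into regions, and 129 of 76044 regions lay in the 10 windows.

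The study followed TWEAK, a cytokine of the TNF family that acts through the receptor Fn14, and contrasted triple negative lines with lines of other subtypes. Only the HER2 lines are described here. All cells were starved for 8 h in optimem, and the treated cells then had TWEAK at 10 ng/ml for 48 h, renewed at 24 h, while the control cells had none. Each of the 4 combinations of line and treatment had 2 libraries, and 2 further samples, the inputs, carried no list. Each line is a single established culture model. The study's methods call its cell line ChIP-seq replicates biological, while the labels do not tie these libraries to separate cultures or days, so a p-value here measures the spread between these libraries. The cells were profiled in bulk, and fewer cells carrying the mark cannot be told apart from less mark per cell.

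NAD is the electron carrier of central metabolism and the substrate of sirtuins, PARPs and CD38, which break it down and release nicotinamide. In the salvage route NAMPT turns nicotinamide into nicotinamide mononucleotide, and this is the step that limits the rate of salvage in most mammalian cells. NMRK1 makes the same mononucleotide from nicotinamide riboside. NAPRT starts from nicotinic acid, and QPRT from quinolinate, the end of the pathway from tryptophan. The mononucleotides are joined to adenylate by NMNAT1 in the nucleus, NMNAT2 at the Golgi and in the cytosol and NMNAT3 in mitochondria, and NADSYN1 completes NAD from the acid form. NNMT methylates nicotinamide and so takes it out of salvage, and SIRT1 is a deacetylase that consumes NAD.

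The promoters of 5 members are shown because the merged region at their transcription start site (TSS) differed in rank between the lines. NAPRT, whose TSS peak also differed when ranked by itself, is named only. They are RefSeq sequences of GRCh38.p14, the build of the lists in its patched form, each 300 bases long from 250 bases before the start, read 5′ to 3′ on the strand of the gene. Capitals mark the GC box GGGCGG, the CCAAT box and, in NMNAT1, 1 match to the NF-κB motif, each on either strand.
NAMPT, chr7:106284934-106285233, minus strand: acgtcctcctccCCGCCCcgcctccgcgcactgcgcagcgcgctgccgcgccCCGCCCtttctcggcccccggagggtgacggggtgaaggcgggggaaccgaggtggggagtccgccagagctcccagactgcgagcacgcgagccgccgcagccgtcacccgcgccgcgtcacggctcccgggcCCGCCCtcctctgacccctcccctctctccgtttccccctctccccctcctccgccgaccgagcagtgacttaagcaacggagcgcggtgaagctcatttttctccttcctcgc
NADSYN1, chr11:71452953-71453252, plus strand: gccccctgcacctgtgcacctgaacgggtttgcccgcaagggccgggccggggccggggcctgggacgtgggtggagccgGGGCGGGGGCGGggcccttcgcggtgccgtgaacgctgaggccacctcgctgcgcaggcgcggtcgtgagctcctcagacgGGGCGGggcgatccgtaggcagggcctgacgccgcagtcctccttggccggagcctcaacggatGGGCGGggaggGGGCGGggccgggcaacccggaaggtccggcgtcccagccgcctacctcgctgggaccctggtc
NMNAT1, chr1:9943225-9943524, plus strand: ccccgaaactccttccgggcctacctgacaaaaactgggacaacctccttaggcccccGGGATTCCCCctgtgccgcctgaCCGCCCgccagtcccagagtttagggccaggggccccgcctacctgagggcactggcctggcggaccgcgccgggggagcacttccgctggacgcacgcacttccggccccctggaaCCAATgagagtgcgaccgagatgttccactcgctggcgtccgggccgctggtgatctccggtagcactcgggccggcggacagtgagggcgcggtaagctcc
QPRT, chr16:29678930-29679229, plus strand: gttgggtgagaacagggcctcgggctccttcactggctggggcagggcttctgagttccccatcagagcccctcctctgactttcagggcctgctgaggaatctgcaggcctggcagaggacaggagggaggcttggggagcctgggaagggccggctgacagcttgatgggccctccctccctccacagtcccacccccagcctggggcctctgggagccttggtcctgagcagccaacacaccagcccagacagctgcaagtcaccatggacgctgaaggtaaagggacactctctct
SIRT1, chr10:67884406-67884705, plus strand: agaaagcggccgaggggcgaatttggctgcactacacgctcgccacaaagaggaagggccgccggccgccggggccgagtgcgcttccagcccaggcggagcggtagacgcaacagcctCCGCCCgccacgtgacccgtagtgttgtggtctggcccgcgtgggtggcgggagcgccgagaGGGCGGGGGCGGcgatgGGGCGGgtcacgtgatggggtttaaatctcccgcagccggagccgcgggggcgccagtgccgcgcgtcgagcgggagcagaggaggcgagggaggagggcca

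These 5 promoters were unlike in base composition. NAMPT had 38 CpG dinucleotides and 3 GC boxes, SIRT1 had 39 and 4, and NADSYN1 had 34 and 5, against a median of 14 CpG over 34961 promoters of that length. NMNAT1 had 27 CpG and 1 GC box. QPRT stood apart with 3 CpG, at the percentile of 18.1 among all promoters, and no GC box, whereas NAMPT was at 90.1 and SIRT1 at 91.3. NMNAT2 and NMNAT3 each had 18 CpG. A GC box was found in 45.0% of all promoters, CCAAT in 34.6% and the NF-κB motif in 5.91%. The AP-1 motif (TGAGTCA or TGACTCA, searched on both strands) was in 4.92% of promoters and in none of these 7.

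Stretches from the windows of NMNAT2 and NAMPT are shown because they hold the matches to motifs of NF-κB and AP-1, the factors downstream of TWEAK that the study followed. The sequences come from the same build, and capitals mark the matches.
NMNAT2 window, chr1:183324034-183324139, plus strand: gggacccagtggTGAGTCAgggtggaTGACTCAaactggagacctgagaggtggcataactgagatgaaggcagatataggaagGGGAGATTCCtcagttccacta
NAMPT window, chr7:106180312-106180345, plus strand: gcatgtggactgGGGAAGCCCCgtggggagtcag

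The first lies in an intron of NMNAT2, 94.1 kb from its start, in the 1 member region that was present in both TWEAK lists and neither untreated list of SKBR3. It held 2 AP-1 matches and 1 NF-κB match within the 500 bases around the midpoint of that region. The second holds 1 NF-κB match in a region 104.0 kb downstream of the NAMPT start. The other 8 NAMPT regions of SKBR3, including those 28.2 kb and 80.7 kb upstream, had neither motif in that span. Among all SKBR3 regions 14.5% held an AP-1 match and 8.64% an NF-κB match. The AP-1 and NF-κB counts are letters in a window and not evidence of binding.

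The 8 lists held between 36148 and 51687 peaks on chromosomes 1 to 22 and X, and their peaks covered between 70.45 and 105.7 Mb, with every SKBR3 list longer than every MDA-MB-453 list. The share of peaks with a q-value under 1e-05 ran from 39.4% in untreated SKBR3 replicate 1 to 63.8%. Peaks were therefore compared by rank within their own list, as a percentile of the score in column 5 on which 100 is the strongest peak. All 8 breast and HER2 markers looked for, among them ERBB2, KRT8 and GATA3, were marked by a TSS peak in each of the 8 lists, while PTPRC, PECAM1 and ALB, markers of leukocytes, endothelium and liver, had none. TNNT2, a cardiac muscle gene, had one in the 4 SKBR3 lists.

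NAMPT had one of the strongest promoter marks of SKBR3 and a strong but lower ranked one in MDA-MB-453. NAMPT (ENSG00000105835.13) lies on the minus strand of chromosome 7 at chr7:106248298-106285966 in hg38, and no other protein-coding gene starts in its window. Its TSS peak had percentiles of 99.4 and 98.3 in untreated SKBR3 and of 99.2 and 98.6 with TWEAK. In MDA-MB-453 the percentiles were 89.1 and 88.8 without TWEAK and 89.5 and 90.6 with it. The lines did not overlap. On the scale of normal scores, in which a difference of 1 is 1 standard deviation of the ranks in a list, the NAMPT start was 1.05 ± 0.107 (SE, n = 4 lists a line) higher in SKBR3 (limma, adjusted p = 0.000153).

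The size of the NAMPT promoter peak did not separate the lines. It was between 2146 and 2347 bp wide in SKBR3 and between 2189 and 2476 bp in MDA-MB-453, and the log2 difference of the centred widths was -0.03 (limma, adjusted p = 0.754). Its fold enrichment over background was 18.7 and 17.3 in untreated SKBR3 and 21.5 and 15.7 with TWEAK. In MDA-MB-453 the fold enrichment was 18.0 and 16.1, then 16.8 and 17.1. These fold values overlapped between the lines, and when the peaks were ranked by fold enrichment in place of the score the difference was 0.58 and was still called.

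No difference with TWEAK passed the test at the NAMPT start. The difference of TWEAK and untreated lists was -0.01 ± 0.22 (SE) in SKBR3 (limma, adjusted p = 0.996) and 0.06 ± 0.073 in MDA-MB-453 (adjusted p = 0.89), with n = 2 lists a group.

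**Figure D1:**
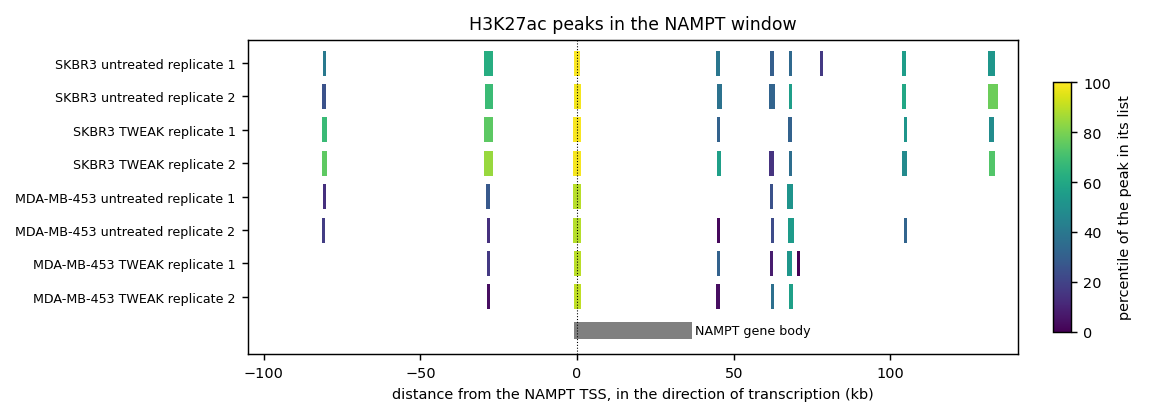
Peaks of the 8 H3K27ac lists in the NAMPT window, by distance from the NAMPT start in kb (x axis) and list (y axis), with each bar a peak (drawn at least 1 kb wide) and its colour the percentile by score within its list. The strongest bar of each list is at the start, and the bars 28.2 kb upstream are wide and higher ranked in the 4 SKBR3 lists and narrow and low ranked in the 4 MDA-MB-453 lists.

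Outside the promoter, the window of NAMPT held 9 regions, and all of them lay outside protein-coding genes. The one of highest rank in SKBR3 lay 28.2 kb upstream, at chr7:106311670-106314738. Its percentiles were 62.4 and 68.2 in untreated SKBR3, 74.8 and 84.6 with TWEAK, 27.6 and 13.8 in untreated MDA-MB-453 and 16.5 and 3.88 with TWEAK. Peaks covered 3043, 2813, 3048 and 3069 bp of it in the SKBR3 lists and 1174, 646, 648 and 209 bp in the MDA-MB-453 lists. Every SKBR3 list was above every MDA-MB-453 list in both measures. The rank difference was 1.73 ± 0.2 (SE, limma, adjusted p = 0.000274) and the log2 width difference 2.39 (adjusted p = 0.00212). TWEAK and untreated lists differed by 0.45 in SKBR3 (adjusted p = 0.679) and by -0.53 in MDA-MB-453 (adjusted p = 0.808), and neither passed the test.

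A region 80.7 kb upstream, at chr7:106364858-106366420, had percentiles of 40.6 and 25.2 in untreated SKBR3 and of 67.8 and 75 with TWEAK. In MDA-MB-453 it was listed at 13.9 and 17.8 without TWEAK and in neither TWEAK list. The TWEAK lists of SKBR3 were thus both above the untreated ones, and the region counted as lost in MDA-MB-453. The SKBR3 difference was 1.02 ± 0.227 (SE) with an unadjusted p of 0.00493 and an adjusted p of 0.401 by limma, which did not pass.

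Of the 3 NAMPT regions in all 8 lists, the one at 68.0 kb downstream (chr7:106215850-106218047) ranked higher in MDA-MB-453. Its percentiles were 33.9, 55.8, 31.1 and 35.8 in SKBR3 and 51.7, 54.4, 52.4 and 56.3 in MDA-MB-453, with 1 untreated SKBR3 list inside the range of the other line. The difference was -0.38 in rank (limma, adjusted p = 0.0351) and -0.84 in log2 width (adjusted p = 0.000506). A region 133.0 kb downstream was in the SKBR3 lists alone, at 52.4, 77.6, 48.1 and 72.7. The regions at 62.2 kb and 45.5 kb were each in 7 lists, and that at 104.0 kb in the 4 SKBR3 lists and 1 MDA-MB-453 list.

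The study deleted and assayed parts of a super-enhancer near NAMPT in triple negative cells, and the amplicons of its assay primers were placed on the build by exact match. The ChIP-qPCR amplicon of its enhancer #1 fell at chr7:106313323-106313491, 28.4 kb from the start and inside the region described above. Upstream here means against the direction of transcription, which for NAMPT on the minus strand is toward higher coordinates. A peak covered it in 7 of 8 lists, and in TWEAK replicate 2 of MDA-MB-453 the nearest peak ended 0.035 kb away. The amplicon of enhancer #3 fell at chr7:106344924-106345115, 60 kb upstream, and no list had a peak there. The nearest peaks were between 19.7 and 31.6 kb away. Enhancer #2 was not placed, as 1 primer of each pair had no exact match on the chromosome.

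The starts of NDUFA4, MCL1, RAP2A and TMEM65 were among the 5 nearest to that of NAMPT in their ranks over the 8 lists, by Euclidean distance of the normal scores among 9556 genes. The distances ran from 0.314 for RAP2A to 0.38 for TMEM65. RAP2A, for one, ranked at 99.0, 97.8, 98.9 and 98.1 in SKBR3 and at 89.7, 88.0, 91.9 and 89.2 in MDA-MB-453. The distance takes in the level of the ranks as well as the difference between the lines, and which of these the likeness rests on was not tested.

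At the starts of the other members the lines parted in both directions. A peak lay within 1 kb of the canonical TSS in all 8 lists for 7 of 10 members, against 47.9% of all protein-coding genes, namely NAMPT, NAPRT, NADSYN1, NMNAT1, NMRK1, QPRT and SIRT1. When the peak at the TSS was ranked by itself, 5 of the 7 were called higher in SKBR3 and 1 lower, beside 32.5% and 31.0% of the 9556 genes with such a peak. When the whole merged region at the TSS was ranked, as first planned, 4 were higher and 1 lower, beside 30.8% and 29.8%. NAPRT made the difference between the counts.

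NAPRT, which opens the route from nicotinic acid, had TSS percentiles of 92.6, 97.6, 93.7 and 94.3 in SKBR3 and of 49.9, 55.8, 55.5 and 50.7 in MDA-MB-453. Its TSS peak was 29781 bp wide in untreated SKBR3 replicate 1 and between 12814 and 14672 bp in the other SKBR3 lists, while it was between 1292 and 1753 bp in MDA-MB-453. The start of NAPRT was thus within a broad block of H3K27ac in SKBR3 and under a narrow peak in MDA-MB-453. The rank of this peak differed by 1.56 ± 0.117 (SE, limma, adjusted p = 2.33e-05). In SKBR3 that is the rank of the block and not of the NAPRT start alone. Its percentiles there were those of the whole merged region, of which the replicate 1 untreated peak filled 29781 bp. The merged region of 30373 bp also held the starts of GSDMD, MROH6 and EEF1D, and over it the rank difference was 0.29 (adjusted p = 0.0864), since its strongest peak in MDA-MB-453 ranked between 89.4 and 93.5 and was not the one at NAPRT.

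QPRT, which takes quinolinate into NAD, showed the widest split in rank among the members' starts. Its percentiles were 79.8 and 83.0 in untreated SKBR3 and 75.7 and 82.5 with TWEAK, and in MDA-MB-453 they were 7.3 and 16.5, then 27.1 and 14.2. Peaks at the start were 4954, 4797, 4531 and 3909 bp wide in SKBR3 and 1355, 482, 449 and 926 bp in MDA-MB-453. The promoter of lowest CpG content among those shown was thus near the bottom of the MDA-MB-453 lists and well inside the upper part of the SKBR3 lists. The rank difference was 1.88 ± 0.15 (SE, limma, adjusted p = 5.29e-05) and the log2 width difference 2.64 (adjusted p = 0.00151).

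SIRT1, the NAD-consuming deacetylase, followed the pattern of NAMPT. Its TSS ranked at 97.8, 96.1, 96.7 and 94.0 in SKBR3 and at 82.0, 84.3, 82.1 and 83.5 in MDA-MB-453. The rank difference was 0.84 ± 0.101 (SE, limma, adjusted p = 0.00032), while the log2 width difference of -0.05 did not pass (adjusted p = 0.664). NMNAT1, the nuclear adenylyltransferase, ranked at 90.4, 92.6, 92.7 and 94.6 in SKBR3 and at 81.3, 82.2, 90.2 and 90.4 in MDA-MB-453, a difference of 0.35 ± 0.079 (adjusted p = 0.00594). Its MDA-MB-453 lists with TWEAK sat next to the lowest SKBR3 list, and the TWEAK difference there was 0.39 with an unadjusted p of 0.00494 and an adjusted p of 0.583. The NMNAT1 peak also spans the start of LZIC.

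NADSYN1, which amidates the acid form, was the only member of the 7 tested whose start was called higher in MDA-MB-453. Its TSS peak was at 56.8, 72.3, 77.9 and 73.1 in SKBR3 and at 89.2, 89.8, 89.6 and 89.7 in MDA-MB-453. The merged region, which holds the start of DHCR7 too, differed by -0.50 ± 0.113 (SE, limma, adjusted p = 0.00625) and the TSS peak by itself by -0.72 (adjusted p = 0.000445). With peaks ranked by fold enrichment the region's difference was -0.24 and the call was lost (adjusted p = 0.12). NMRK1, the riboside kinase, had similar ranks in the lines, from 56.2 to 64.6 in SKBR3 and from 63.3 to 68.6 in MDA-MB-453, a difference of -0.11 that did not pass (adjusted p = 0.278), and its peak, shared with OSTF1, was narrower in SKBR3 by a log2 difference of -0.39 (adjusted p = 0.00946).

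The remaining 3 members had no TSS peak in at least some lists. NMNAT2, the adenylyltransferase known from axon survival, had none at its canonical start in any list, although a region at another annotated start 139.0 kb further into the gene was in all 8. NMNAT3 had one in untreated SKBR3 replicate 1, at 27.5, and in all 4 MDA-MB-453 lists, at 39.3, 50.5, 64.0 and 36.4. NNMT, the nicotinamide methyltransferase, had one in SKBR3 alone. It ranked at 48.9 and 10.9 without TWEAK and at 64.6 and 80.5 with it, so both TWEAK lists were above both untreated ones. The NNMT difference of 1.25 ± 0.426 (SE) had an unadjusted p of 0.0288 and an adjusted p of 0.546 by limma and did not pass.

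**Figure D2:**
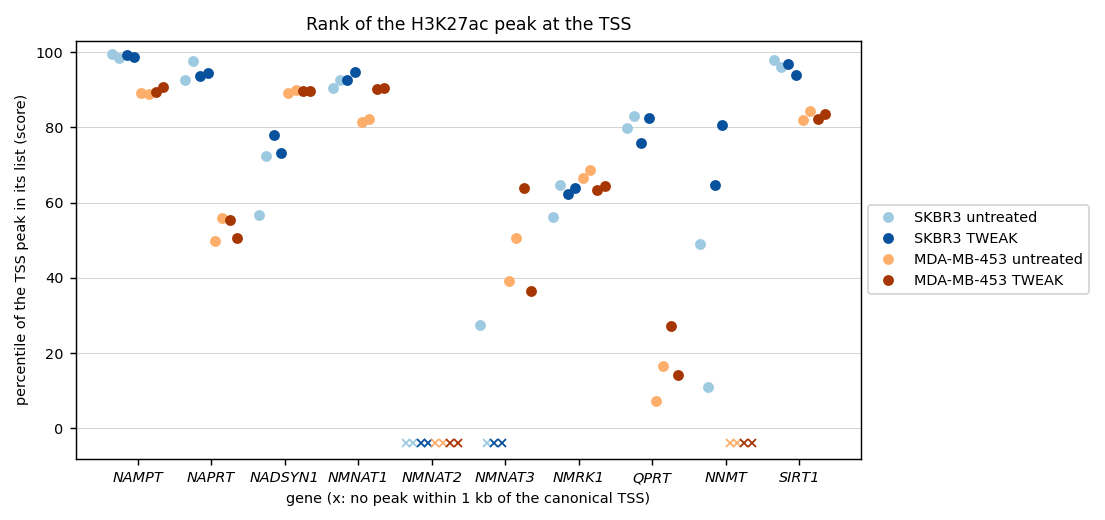
Percentile of the TSS peak within its list for each of the 10 members (y axis 0 to 100), with 1 point for each of the 8 lists, colours for line and TWEAK and a cross where a list has no peak within 1 kb. NAMPT, NAPRT, QPRT and SIRT1 sit higher in the 4 SKBR3 lists, NADSYN1 sits higher in MDA-MB-453, and NNMT has points in SKBR3 alone.

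The windows of QPRT and NMNAT2 held most of the member regions particular to SKBR3, 12 of 20. They also held 23 and 21 of the 129 member regions of any kind. Over the 10 windows, 20 of 129 regions were held by the 4 SKBR3 lists alone, beside 14.1% of all regions, and 7 showed the reverse, beside 10.5%. A further 36 were in all 8 lists, beside 23.3%, and 38 were in 1 list. Of the 20 SKBR3 regions QPRT and NMNAT2 had 6 each, NADSYN1 had 3, NAPRT 2 and NAMPT, NMRK1 and NNMT 1 each, while of the 7 MDA-MB-453 regions NNMT had 4 and NAPRT, NADSYN1 and NMNAT3 had 1 each. With lists cut to equal size the first count was 11, while the second kept within 1.5 times its value. The shares over all regions were not taken for the cut lists.

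Around QPRT (chr16:29663279-29698699), the SKBR3 region of highest rank spanned 5743 bp at the start of ZG16, 99.6 kb downstream, at chr16:29775920-29781662. It was at 89.0, 94.9, 89.6 and 94.0, and MDA-MB-453 had no peak there. The other 5 lay 8.3, 37.5, 68.6, 90.5 and 105.0 kb downstream and ranked between 1.01 and 67.3. On the other side of QPRT, a region 76.0 kb upstream at chr16:29592336-29614099 was in all 8 lists and went both ways. Peaks covered 21671, 21535, 20951 and 21561 bp of it in SKBR3 and 3986, 4998, 4922 and 4626 bp in MDA-MB-453. Its percentiles were 87.7, 79.1, 87.1 and 83.1 in SKBR3 and 95.5, 95.0, 95.3 and 97.4 in MDA-MB-453. It was thus wider in SKBR3, by 2.20 in log2 (limma, adjusted p = 2.61e-05), and lower in rank, by -0.73 (adjusted p = 0.00103).

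Around NMNAT2 (chr1:183248237-183418380), the intronic region 69.0 kb into the gene, at chr1:183348490-183350345, ranked at 88.1, 95.4, 84.3 and 85.4 in SKBR3 and at 24.1, 6.11, 17.7 and 26.1 in MDA-MB-453. This was the largest rank difference among the 36 member regions in all 8 lists, at 2.18 ± 0.203 (SE, limma, adjusted p = 9.86e-05). A region of 9862 bp 39.6 kb upstream was at 93.2, 94.7, 95.4 and 97.5 in SKBR3 and in 1 MDA-MB-453 list, at 22.3. The 6 regions of SKBR3 alone were 255.0, 237.0, 115.0, 107.0 and 99.8 kb downstream of the start and 31.8 kb upstream of it. Of these, the intronic one at 107.0 kb was at 74.2, 81.7, 83.5 and 94.4.

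**Figure D3:**
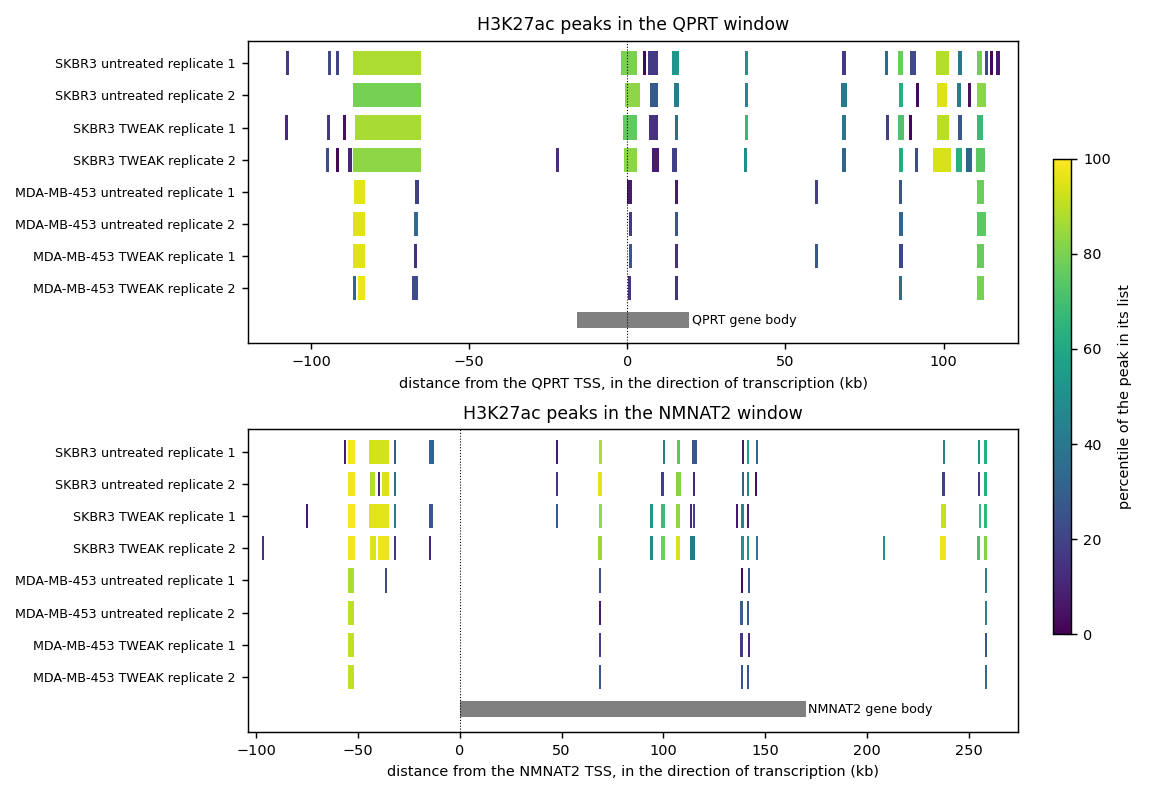
Peaks of the 8 lists in the windows of QPRT and NMNAT2, by distance from the TSS in kb (x axis) and list (y axis), with colour the percentile by score within the list. The SKBR3 lists carry the block 76.0 kb upstream of QPRT as 1 wide bar where MDA-MB-453 has narrow bars at its ends, and most bars inside and around NMNAT2 are in SKBR3.

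Line specific regions of the other members were fewer. Those of NADSYN1 in SKBR3 lay 19.2 kb upstream inside DHCR7 (68.8, 57.5, 72.7 and 75.1), 26.9 kb downstream within NADSYN1 (74.8, 81.2, 82.3 and 81.0) and 35.4 kb downstream (16.6, 44, 46 and 62.9), and the one in MDA-MB-453 lay 27.3 kb upstream at 28.3 and 35.0 without TWEAK and at 29.9 or lower with it. NADSYN1 thus had a stronger start in MDA-MB-453 and more regions in its body in SKBR3. NNMT had 3 MDA-MB-453 regions inside ZBTB16, 136.0, 131.0 and 117.0 kb upstream, of which the last ranked at 64.6, 63.9, 65.0 and 62.8, and 1 more in its own intron 12.4 kb downstream at 34.1, 38.3, 21.1 and 39.3. NAPRT had an MDA-MB-453 region at a start of GSDMD, 25.1 kb away, at 70.4, 73.4, 71.6 and 78.1, and SKBR3 regions 87.2 and 84.3 kb away in introns of ZC3H3 between 14.1 and 61.4. NMRK1 had 1 SKBR3 region in an intron of OSTF1 between 20.6 and 42.6.

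The regions away from a TSS with the highest ranks in the windows of SIRT1, NMNAT1 and NNMT also differed between the lines. The SIRT1 region 34.8 kb upstream was at 87.8, 82.9, 78.1 and 91.2 in SKBR3 and at 57.5, 63.4, 57.4 and 43.9 in MDA-MB-453, a difference of 0.92 (limma, adjusted p = 0.00138). The NMNAT1 region 101.0 kb upstream was at 82.2, 88.8, 83.8 and 80.2 against 66.8, 73.7, 70.8 and 67.6, a difference of 0.47 (adjusted p = 0.00438). For NNMT the region 133.0 kb upstream was higher in MDA-MB-453, at 76.7, 78.2, 81.0 and 79.0 against 67.5, 54.0, 74.5 and 60.1, a difference of -0.43 (adjusted p = 0.0165), and a ZBTB16 intron region at 99.1 kb was in the 4 SKBR3 lists between 57.6 and 73.5 and in 1 MDA-MB-453 list at 15.6.

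Of the 36 member regions in all 8 lists, 21 ranked higher in SKBR3 and 4 lower by limma at an adjusted p under 0.05, beside 37.9% and 27.5% of 17704 regions tested. Their median difference was 0.45, against 0.08 for all regions. In width, 13 were higher in SKBR3 and 6 lower, beside 30.1% and 30.7%, with a median of 0.04 against -0.05. The share ranked higher was above the background in the full lists. With peaks of a q-value under 1e-05 alone the higher calls no longer outnumbered the lower ones, at 7 and 7 of 21, beside 26.7% and 35.3% of 10576 regions. These regions are neighbours in 9 windows, so they are not independent of each other. The 4 lower ones were the NADSYN1 start, the QPRT region 76.0 kb upstream, the NAMPT region at 68.0 kb and the NNMT region at 133.0 kb. Without untreated replicate 2 or TWEAK replicate 1 of MDA-MB-453 the count of lower calls was 2.

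**Figure D4:**
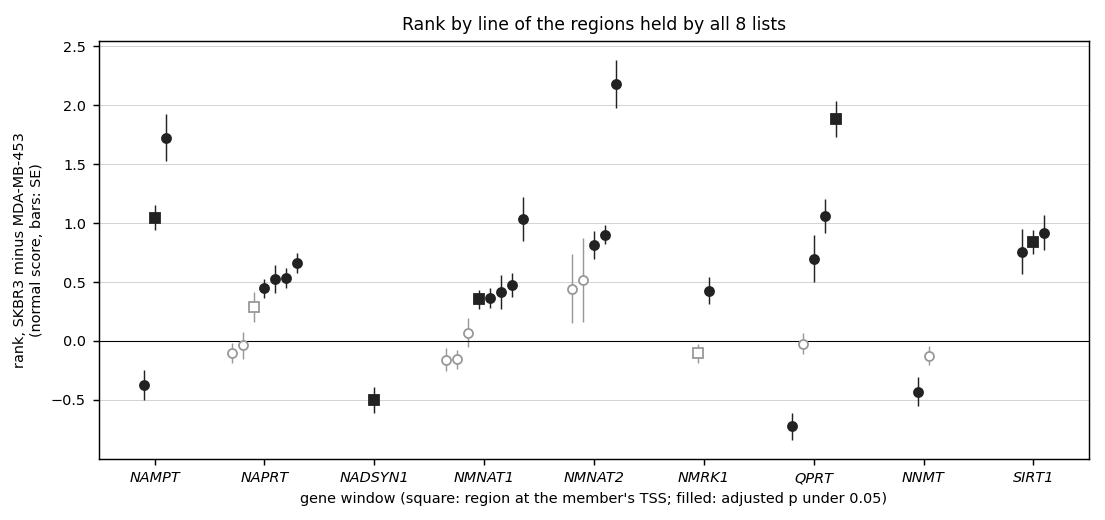
Difference in rank (normal score, SKBR3 minus MDA-MB-453, y axis, bars the SE) of the member regions in all 8 lists, in columns by member, with the region at the member's own TSS as a square and filled symbols for an adjusted p under 0.05. Of the 36 symbols, 21 are filled above 0 and 4 are filled below.

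The kb of each window under peaks, scaled to the total covered length of a list, counts regions that a list lacks as well. By this measure 6 of 10 members were higher in SKBR3 and 3 lower, beside 35.3% and 41.9% of 18612 genes. NMNAT2 had 29.5 ± 3.89 kb (SD, n = 4) covered in SKBR3 and 6.33 ± 0.616 kb in MDA-MB-453 before scaling, and QPRT 45.4 ± 3.02 kb and 9.54 ± 0.192 kb. Their log2 differences after scaling were 1.64 (limma, adjusted p = 3.3e-06) and 1.71 (adjusted p = 8.46e-07). NAPRT followed, with 56.3 ± 8.71 and 22.8 ± 0.744 kb. The median log2 difference was 0.40 over the members and -0.08 over all genes.

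NAMPT had 12.4 and 14.3 kb covered in untreated SKBR3 and 10.9 and 13.2 kb with TWEAK. In MDA-MB-453 the covered length was 7.01 and 6.21 kb, then 5.73 and 4.74 kb. All SKBR3 lists were above all MDA-MB-453 lists, and the log2 difference was 0.59 ± 0.096 (SE, limma, adjusted p = 0.000879). This call depended on the window. It was 0.08 with 50 kb on each side (adjusted p = 0.499) and 0.16 with 200 kb (adjusted p = 0.139).

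For NADSYN1 the covered length was 16.4 ± 2.63 kb (SD, n = 4) in SKBR3 and 7.99 ± 0.73 kb in MDA-MB-453, a log2 difference of 0.53 (limma, adjusted p = 0.00204), although its start ranked lower there. SIRT1 had 7.30 ± 0.984 and 4.28 ± 0.622 kb, a difference of 0.27 (adjusted p = 0.0266) that was not called without any of 4 libraries in turn (untreated replicate 1 or TWEAK replicate 2 of SKBR3, untreated replicate 1 or TWEAK replicate 2 of MDA-MB-453; 0.26, 0.24, 0.22 and 0.21). NMNAT3 and NNMT were lower in SKBR3. NMNAT3 had 0.245 ± 0.49 kb against 1.73 ± 0.287 kb, a difference of -1.38 (adjusted p = 0.000325), and NNMT 6.82 ± 1.15 kb against 8.59 ± 0.188 kb, a difference of -0.70 (adjusted p = 7.26e-05). With 50 kb on each side the sign turned for NNMT (0.10, adjusted p = 0.427) and for SIRT1 (-0.27, adjusted p = 0.00738). NMRK1, with 5.65 ± 0.676 and 5.98 ± 0.502 kb, was called lower at -0.46 (adjusted p = 0.00117), a call that was lost without scaling (-0.07), and NMNAT1, with 23.3 ± 2.54 and 17.1 ± 0.304 kb, showed -0.01 (adjusted p = 0.937).

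Scaling moved these values for all genes. The median difference between the lines was -0.08 with it and 0.33 without it, and of the genes called, 45.7% were higher in SKBR3 with scaling and 67.5% without. Without scaling NMNAT1 was called higher in SKBR3, at 0.42.

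**Figure D5:**
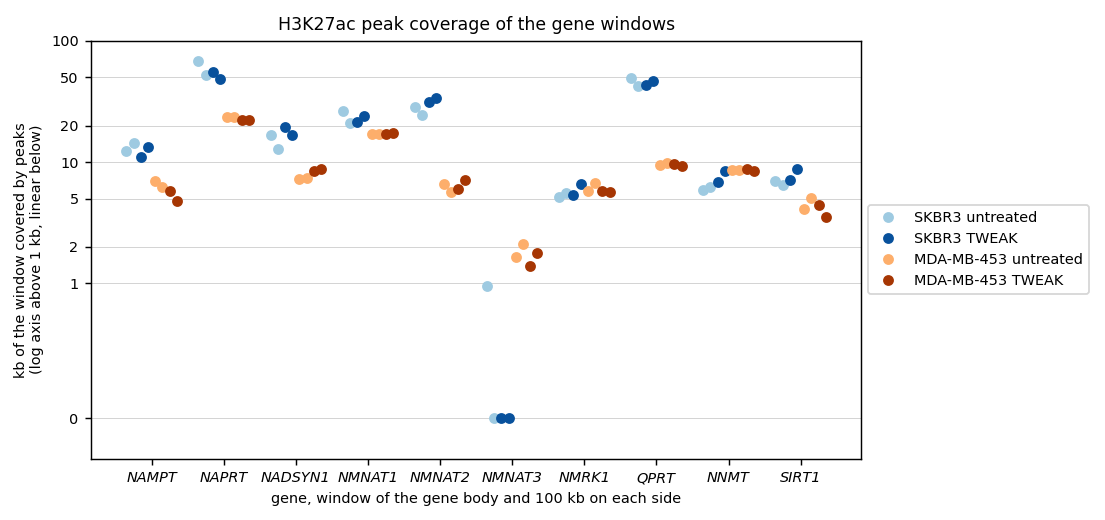
Length of each member's window under H3K27ac peaks (kb, not scaled, y axis, which is logarithmic above 1 kb and linear below) in each of the 8 lists, with the points coloured by line and TWEAK. The SKBR3 points lie above the MDA-MB-453 points for QPRT, NMNAT2, NAPRT, NADSYN1, NAMPT, NMNAT1 and SIRT1, and the reverse is seen for NMNAT3.

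Few member regions appeared or disappeared with TWEAK. In SKBR3, 1 of 115 member regions was gained (in both TWEAK lists and no untreated list), beside 4.61% of 62104 regions, and 1 was lost, beside 1.40%. In MDA-MB-453, 0 of 66 were gained, beside 1.33% of 42831, and 2 were lost, beside 1.30%. The gained one was the NMNAT2 intron region whose sequence is printed above, chr1:183323535-183325056, at 53.7 and 48.3 in the TWEAK lists. SKBR3 lost a region at a start of ZC3H3 in the NAPRT window, at 42.0 and 1.1 before. MDA-MB-453 lost the NAMPT region 80.7 kb upstream and a NAPRT region at MROH6, at 12.7 and 16.5 before. These counts moved with single libraries. Without TWEAK replicate 1 of SKBR3, 13 regions were gained, or 11.6% beside 17.6% of all regions, and without untreated replicate 2 of SKBR3, 20 were lost, or 17.4% beside 9.62%. The rule is looser with 3 lists, and the shares over all regions rose with it. Leaving out untreated replicate 1 of SKBR3 gave 3 gained regions (3.12% beside 7.86%), and TWEAK replicate 2 gave 4 (3.88% beside 9.76%), while the lost count was 5 with either of its TWEAK libraries left out, beside 3.29% and 3.79% of all regions. For MDA-MB-453, 6 were lost when untreated replicate 1 was left out (9.38% beside 5.44%) and 4 for untreated replicate 2 (6.45% beside 3.78%), which also gave 1 gained region, beside 3.71%. Leaving out either TWEAK library gave 2 gained regions, beside 4.50% and 5.21%.

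No rank or width in the member windows passed the test for TWEAK. By limma 0 of 62 member regions in all 4 SKBR3 lists passed in rank, with 7 at an unadjusted p under 0.05, and 0 of 50 in MDA-MB-453, with 2. Over all regions 0.00% were called in either line, and 8.12% and 6.89% had an unadjusted p under 0.05. In width 0 passed in either line, with 5 and 4 at an unadjusted p under 0.05, beside 0.00% called. For the test of whether the TWEAK difference itself varied between the lines, 0 of 36 passed in rank or width, with 2 and 3 at an unadjusted p under 0.05, beside 0 of 17704 called over all regions and 7.47% and 7.01% at an unadjusted p under 0.05. Window coverage was called for 0 members in SKBR3, beside 1.60% of genes, and for 0 in MDA-MB-453, beside 0.0107%, and 0 had an unadjusted p under 0.05. No other count tool was run, since the lists hold no reads.

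The 7 SKBR3 regions at an unadjusted p under 0.05 were all higher with TWEAK. They were 4 regions of NMNAT2, the NAMPT region 80.7 kb upstream, the NNMT start and a SIRT1 window region in an intron of DNAJC12. The NMNAT2 region at chr1:183179465-183182323, 237.0 kb downstream of its start and outside the gene, ranked at 42.0 and 18.8 without TWEAK and at 91.1 and 97.3 with it. Its difference of 2.18 ± 0.32 (SE) had the smallest unadjusted p of the members, 0.000668, with an adjusted p of 0.37 by limma. The NMNAT2 intron region at 99.8 kb went from 40.6 and 18.8 to 67.6 and 77.9 (adjusted p = 0.405), and the SIRT1 window region from 64.1 and 69.1 to 81.4 and 95.2 (adjusted p = 0.55). In each of these the groups of 2 lists did not overlap, and none passed the correction.

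Super-enhancer-like regions, made by stitching neighbouring peaks and ranking the sums of width times fold enrichment, were absent from the NAMPT window in all 8 lists. None of the 10 members had one in all 8 lists, beside 6.51% of protein-coding genes, and between 13.0% and 19.7% of genes had one in a given list. QPRT had one in the 4 SKBR3 lists, NAPRT and NMNAT1 in 3 lists each and NMNAT2 in 2, while NADSYN1, NMNAT3, NMRK1, NNMT and SIRT1 had none. The NAMPT count was 0 as well with stitching over 5 kb and with peaks near a TSS kept. With those peaks kept QPRT had one in all 8 lists, so the count of members was then 1, and with stitching over 5 kb NMNAT1 had none and NMNAT2 had one in 1 list.

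In position the member regions were like the rest of the series with somewhat more at gene starts. Of the 129 regions 41 were within 1 kb of a protein-coding TSS, or 31.8%, against 22.7% of all regions. Among those of SKBR3 alone 25.0% were at a start, against 16.2%. The windows were placed around genes, and 25 of the 41 were at the starts of other genes.

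Beyond the members, 30 genes of NAD metabolism chosen as a list were read in the same way. Of these, 12 had more window coverage in SKBR3 and 10 less by limma, beside 35.3% and 41.9% of 18612 genes. Their median difference was 0.05, against 0.40 over the members and -0.08 over all genes. The largest differences were in NUDT12, an NADH pyrophosphatase (-2.88), TDO2, which opens the tryptophan route (-2.64), the mitochondrial NAD kinase NADK2 (-1.78), the aldehyde oxidase AOX1 (-1.67), kynureninase KYNU (1.60) and the deacylase SIRT6 (1.43). With TWEAK 0 of 30 passed in either line, beside 1.60% of genes in SKBR3 and 0.0107% in MDA-MB-453. A TSS peak was in all 8 lists for 14 of the 30, beside 47.9% of all protein-coding genes. Of these 14, 5 ranked higher and 6 lower in SKBR3 by the peak at the TSS, beside 32.5% and 31.0% of 9556 genes. Within the tryptophan route that feeds QPRT, the KYNU start had a peak in SKBR3 alone and the KMO start ranked at 72.2, 47.1, 74.1 and 73.8 in SKBR3 against 99.6, 99.5, 99.4 and 99.5 in MDA-MB-453, where QPRT itself ranked low. The AFMID start, in the same route, had a mean percentile of 98.7 in SKBR3 and 74.6 in MDA-MB-453. Its peak was between 26661 and 35305 bp wide in SKBR3 and between 2719 and 3090 bp in MDA-MB-453. The SKBR3 percentile is thus that of a broad block and not of the AFMID start alone. The merged region at AFMID went the other way, with a rank difference of -0.54. TDO2, IDO1, IDO2 and HAAO had no TSS peak in any list.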

How the data were processed

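H3K27ac ChIP-seq libraries of SKBR3 and MDA-MB-453 cells with and without TWEAK (2 replicates a group) were analysed from their peak lists. The authors trimmed reads with Trimmomatic, aligned them to hg38 by Bowtie2, ran MACS2 on every library against its input and removed blacklisted regions with bedtools. Versions and calling options are not given in the sources used here. The deposited lists give for each peak a score, a fold enrichment ratio over background, and a p-value and q-value as −log10. In at least 99.95% of peaks the score deposited by the authors was the whole part of 10 times −log10 q. The lists hold no reads, so depth is unknown, no counting interval can be given, and the read-based comparison of the study (DiffBind) was not repeated. A peak missing from a list may have been just under its threshold.

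Chromosomes 1 to 22 and X were used, and 0 peaks fell outside the hg38 reference. Peaks overlapping by 1 bp were merged, over 8 lists for the lines and over 4 for TWEAK. Genes and starts came from GENCODE release 44 (MANE Select transcript), and a TSS peak lay within 1 kb. Percentiles by score were turned into normal scores. Rank, log2 width centred on each list's median, and log2(kb of a window covered + 1), scaled to the covered length of the list, were fitted with limma 3.58.1 in R 4.3.3 over all features, two-sided, with Benjamini-Hochberg adjustment over all features tested. Width and rank fits held regions in all lists compared, and coverage fits held genes with 1 kb covered in 2 lists. The fits were tested on simulated data. Super-enhancer-like regions left out peaks within 2.5 kb of a TSS.

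The members, gene lists and tests were chosen with earlier results of these data known. The text names all members, each window's region at the TSS, its gained, lost and line specific regions and the region of highest mean percentile away from a TSS in each line, at most 6 pathway genes by size among those called, and the 5 genes nearest to NAMPT, except for a few items that are not reported here. Regions in 1 or a few lists are given by counts. Other regions named for TWEAK were chosen after their values were seen. Alternatives covered the q-value, overlap, merging, window, list size, ranking column, scaling, pseudocount, filter, replicate block and leaving out each library.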

Additional observations from a re-analysis of the deposited data

Results flagged for a closer look

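The NAMPT region 80.7 kb upstream of the start was higher in rank with TWEAK in SKBR3 and missing with TWEAK in MDA-MB-453, and for this reason is set out here. In SKBR3 both TWEAK lists, at percentiles of 67.8 and 75 with a mean of 71.4, were above both untreated lists, at 40.6 and 25.2. In MDA-MB-453 the region was in both untreated lists, at 13.9 and 17.8, and in neither TWEAK list. The difference between the lines was not tested, since the region is missing from lists of MDA-MB-453. Within SKBR3 the rank difference did not pass the correction (limma, adjusted p = 0.401), and groups of 2 lists are too small to look for single libraries that stand apart.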

How the results depend on the processing

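Over the alternatives, 240 counts stayed within 1.5 times the value reported and 38 did not, and of single values 252 kept direction and call, 4 gained and 9 lost the call and 8 changed sign. With peaks of a q-value under 1e-05 alone, 5 member regions were gained in SKBR3, 11 were in SKBR3 alone and 2 in MDA-MB-453 alone, 7 ranked higher and 7 lower in SKBR3 of 21 tested (26.7% and 35.3% of all regions), 6 were wider and 3 narrower (28.7% and 33.4%), and 4 members had a TSS peak in all lists. When at least 50% of a region had to be covered, 4 were gained and 3 lost in SKBR3, and 2 gained and 1 lost in MDA-MB-453. Of 16 member regions then tested, 8 ranked higher and 1 lower in SKBR3, beside 36.2% and 28.1% of 6597 regions. With a window of 50 kb, 0 were lost in SKBR3 and 1 in MDA-MB-453, with 12 in SKBR3 alone and 4 in MDA-MB-453 alone. With 200 kb, 3 were gained in SKBR3, 31 and 12 were in 1 line alone, and 32 ranked higher and 9 lower. The window does not alter the shares over all regions. These were 4.61% gained and 1.40% lost in SKBR3 and 1.30% lost in MDA-MB-453. They were 14.1% and 10.5% in 1 line alone and 37.9% and 27.5% in rank. The number of member regions in these windows is not given here. With lists of equal size, 11 were in SKBR3 alone and 1 was gained in MDA-MB-453. Shares over all regions were not taken for the gained, lost and 1-line counts under the q-value, overlap and equal-size settings. Nor was the share of all genes with a TSS peak in all lists taken under the q-value setting. Those counts are therefore not a result about the members.

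Leaving out each library in turn gave from 1 to 13 gained and 1 to 20 lost regions in SKBR3, 0 to 2 and 2 to 6 in MDA-MB-453, and from 2 to 4 lower ranks, with the lone remaining library of a group assumed to vary like the others. NMNAT1 coverage changed sign without scaling (0.42), with 200 kb (0.68) and without single libraries (from -0.070 to 0.056), SIRT1 coverage with 50 kb (-0.27) and NNMT coverage with 50 kb (0.10). The cause of these changes was not tested.

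The labels do not say whether libraries of the same replicate number belong together, and the main fits did not pair them. Same-numbered libraries had deviations correlated at 0.316 over 30803 regions in SKBR3 and -0.028 over 31162 in MDA-MB-453. With the replicate number as a block, 20 of 36 member regions ranked higher and 4 lower in SKBR3, beside 39.7% and 29.4% of 17704 regions. In width 13 were wider and 6 narrower, beside 30.7% and 31.0%. Coverage was higher for 6 of 10 members and lower for 3, beside 37.6% and 44.1% of 18612 genes. No TWEAK call was made for a member. Over all genes the block moved the coverage calls for TWEAK in SKBR3 from 253 higher and 44 lower to 446 and 73. In rank, 3824 SKBR3 regions had an unadjusted p under 0.05 for TWEAK by limma with the block, against 2501 without it. For MDA-MB-453 there were 1926 with the block and 2146 without it. In both lines 0 regions were called. Depth is unknown, and with 2 lists a group a region just under a caller's threshold counts as absent.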

Other observations

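CD38, the main NAD glycohydrolase of many tissues, was the gene of NAD metabolism with the smallest adjusted p for TWEAK in window coverage in SKBR3, and was chosen after its values were seen. Its window had 7.34 and 7.68 kb under peaks in untreated SKBR3 and 11.9 and 16.0 kb with TWEAK. In MDA-MB-453 the covered length was 2.98 and 3.66 kb, then 3.56 and 2.85 kb. The SKBR3 lists with TWEAK were both above the untreated ones, and the log2 difference of 0.70 ± 0.142 (SE) had an adjusted p of 0.0668 by limma, which did not pass. CD38 had no peak at its own start in any list.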
